A study of Mus musculus with 412 samples.

Results

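Nefh, Nefm, Prph and Ina encode the heavy and the medium neurofilament chain, peripherin and alpha-internexin, and their levels in mouse colonic sensory neurons are described here. The genes were taken by symbol from the Ensembl identifiers of the deposited table, and they are 4 of the 45513 genes listed there. In total, 34769 genes had a value above 0 in some neuron, and each of the 4 had one in most neurons. The neurons came from healthy C57BL/6J mice in which Fast Blue, a fluorescent dye that nerve endings take up and carry back to the cell body, had been injected into the colon wall, and no other treatment or genotype is given. Thoracolumbar (TL, from T10 to L1) and lumbosacral (LS, from L5 to S2) dorsal root ganglia (DRG) were removed 3 to 10 days later and dissociated in separate cultures, from which blue neurons were picked 1 by 1 and sequenced by Smart-seq2, a full-length cDNA protocol without molecular identifiers. The labels list 203 TL neurons, 167 of them in the table, and 196 LS neurons, 158 of them in the table. The other 74 neurons and 13 bath controls were not analysed here. Neither the labels nor the study's main text says which mouse a neuron came from, so TL and LS were each 1 sample, no p-value was computed and no difference below has a replicate check.

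Intermediate filaments are rope-like polymers, of which the neurofilaments set the calibre of axons. Neurofilaments are assembled from light, medium and heavy chains, and the long tails of the medium and heavy chains stand out from the filament and are phosphorylated at repeats of lysine, serine and proline. In DRG, a high content of heavy chain is a usual mark of large neurons with myelinated axons, whereas peripherin is typical of small neurons with unmyelinated axons. Alpha-internexin is a filament protein of developing and central neurons that can also join neurofilaments.

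The repeats can be read in the coding sequences, and they are shown because they are what sets Nefh and Nefm apart from Prph and Ina. In the longest complete coding sequence of each gene in GENCODE M21 (GRCm38), a triplet was counted where AAA or AAG was followed in frame by TCN, AGT or AGC and then by CCN, read on the coding strand only. The 1090 codons of Nefh held 51 such triplets, between codons 522 and 887. That was the highest count among 21537 genes, the next gene having 11. In Nefm, with 848 codons, there were 4 triplets between codons 501 and 609, and 17 genes had 5 or more (0.0789% of all). Prph (507 codons) and Ina (501 codons) had none, as was the case for 89.4% of all genes. The 34 codons of each gene with most triplets, the first such window where several were equal, are printed 5′ to 3′ with the triplets in capitals. The stretch of Nefh covers codons 521 to 554 (chr11:4940956-4941057, minus strand) and holds 6 triplets spaced by 3 codons, and that of Nefm covers codons 474 to 507 (chr14:68121063-68121164, minus strand) and holds 2.
Nefh: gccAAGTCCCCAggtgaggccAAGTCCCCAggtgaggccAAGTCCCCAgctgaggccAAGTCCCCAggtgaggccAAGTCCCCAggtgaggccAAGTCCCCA
Nefm: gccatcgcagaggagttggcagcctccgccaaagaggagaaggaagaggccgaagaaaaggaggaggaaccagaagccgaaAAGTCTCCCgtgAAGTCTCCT

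**Figure D1:**
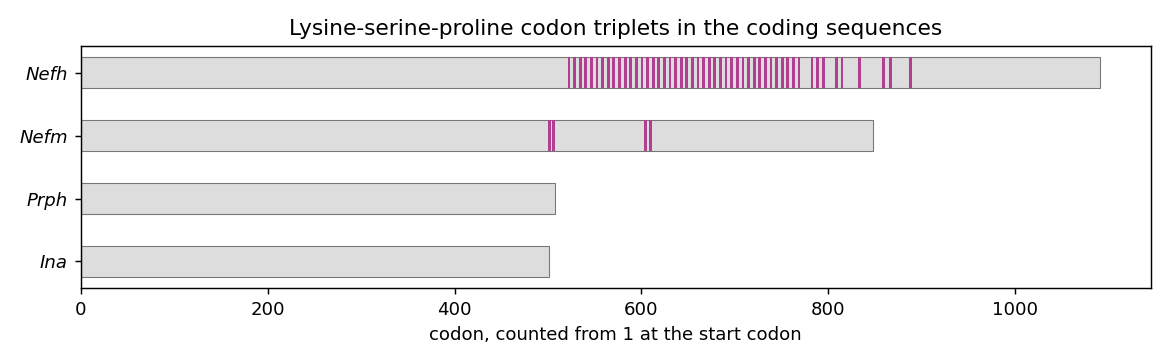
Positions of the triplets that encode lysine, serine and proline (purple) along the coding sequences of the 4 genes (grey bars), with the codon number on the x axis. The 51 triplets of Nefh form a dense block in the second part of its coding sequence, Nefm has 4, and Prph and Ina have none.

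Nefh (ENSMUSG00000020396) lies on chromosome 11 from 4938754 to 4948064 (minus strand) and Prph (ENSMUSG00000023484) on chromosome 15 from 99055174 to 99058978 (plus strand). Neither overlaps another annotated gene. Nefm (ENSMUSG00000022054, chromosome 14 from 68082590 to 68124846, minus strand) shares 1108 exonic bases, 19.2% of its own, with Nefl on the plus strand, which encodes the light neurofilament chain. Ina (ENSMUSG00000034336, chromosome 19 from 47014698 to 47025327, plus strand) shares 456 exonic bases, 14.1% of its own, with Nt5c2 on the minus strand. No source used here states that strand was used in the counting, so reads in these stretches cannot be assigned to 1 gene of the pair. In the 61 neurons with Ina listed at 0, the median level of Nt5c2 was 15.8, against 30.8 in the other neurons. The Spearman correlation of Ina and Nt5c2 was 0.51 over all neurons. Part of it, and of the level of Ina, may be shared reads, which was not tested.

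Levels are given per 1000000. The deposited log2 values were taken off the log scale, as x = 2^value - 1, and x was rescaled so that all genes of a neuron sum to that number. Because x is per length of gene, levels of different genes were set side by side. How reads in the shared stretches of Nefm and Ina, or in the repeats of Nefh, were counted was not examined. Orders and ratios between genes are therefore approximate. Whole reads were recovered from the values and came to between 416007 and 12058968 per neuron, with medians of 2709639 in TL and 3202776 in LS neurons. The label of the cells was checked with 10 genes of sensory neurons, Prph among them, all of which had medians of at least 10 in both segments. Satellite glia and Schwann cells surround the neurons. Of 10 genes of these cells, 6 also had medians of at least 10 over all neurons, 7 in TL and 4 in LS neurons. Sox10 and Kcnj10 had medians of 0 over all neurons, though not within TL. The summed level of the 10 genes had a median of 3315 in TL (31.4 to 100096) and 1149 in LS neurons (54.0 to 59847). Over all neurons, medians of 0 were found for 5 of 6 fibroblast genes, 5 of 6 macrophage genes and 4 of 5 endothelial genes.

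Prph was the highest of the 4 genes in nearly every neuron, followed by Nefm. Over the 325 neurons the median level was 3476 for Prph, 424 for Nefm, 57.8 for Nefh and 32.9 for Ina. By its median, Prph stood at position 16 of all listed genes, Nefm at 286, Nefh at 2126 and Ina at 3283. The order Prph, Nefm, Nefh, Ina was found in 168 neurons (51.7%, among them those with both Nefh and Ina at 0) and the order Prph, Nefm, Ina, Nefh in 150 (46.2%). Only 7 neurons had another order, 3 of them with Nefm above Prph. Together the 4 genes made up a median of 0.420% of the level of all genes. Prph gave a median of 86.1% of their sum, Nefm 10.2%, Nefh 1.49% and Ina 0.836%.

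The genes differed in how much they varied between neurons. From the 10th to the 90th percentile the level of Prph, on the log2(level + 1) scale, spanned 2.54-fold, that of Nefm 4.95-fold, that of Nefh 30.8-fold and that of Ina 130-fold. Among the 10283 genes at a level of 10 or more in at least 10% of neurons, 14.8% had a narrower interquartile range than Prph, 38.1% than Nefm, 88.9% than Nefh and 97.2% than Ina. Prph and Nefm were thus graded around a level found in every neuron, the lowest being 487 for Prph (343 reads) and 21.2 for Nefm (60 reads). Nefh was listed at 0 in 5 neurons and Ina in 61. A floor of 3 reads in those neurons would correspond to levels of 0.372 to 2.78 for Nefh and 0.204 to 4.13 for Ina, all below 10. This floor covers the counting of reads only and not transcripts lost before amplification, so a value of 0 does not show that a gene was not expressed.

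The question of whether TL and LS neurons, which reach the colon through different nerves, differ in filament genes was addressed first. Prph ranged from 487 to 5898 in TL (median 2850) and from 1452 to 6104 in LS neurons (median 3907). Nefh ranged from 0 to 1539 in TL (median 42.5) and from 0 to 670.2 in LS neurons (median 77.7). For Nefm the range was 21.2 to 2021 in TL (median 403) and 71.6 to 1943 in LS neurons (median 449). All of these ranges overlapped widely, although only 10 of the 50 neurons with most Prph were TL, whereas the 10 neurons with most Nefh were all TL. Ina ranged from 0 to 377 in TL (median 32.9) and from 0 to 164 in LS neurons (median 32.7), so its medians were close while more TL neurons lay at both ends.

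**Figure D2:**
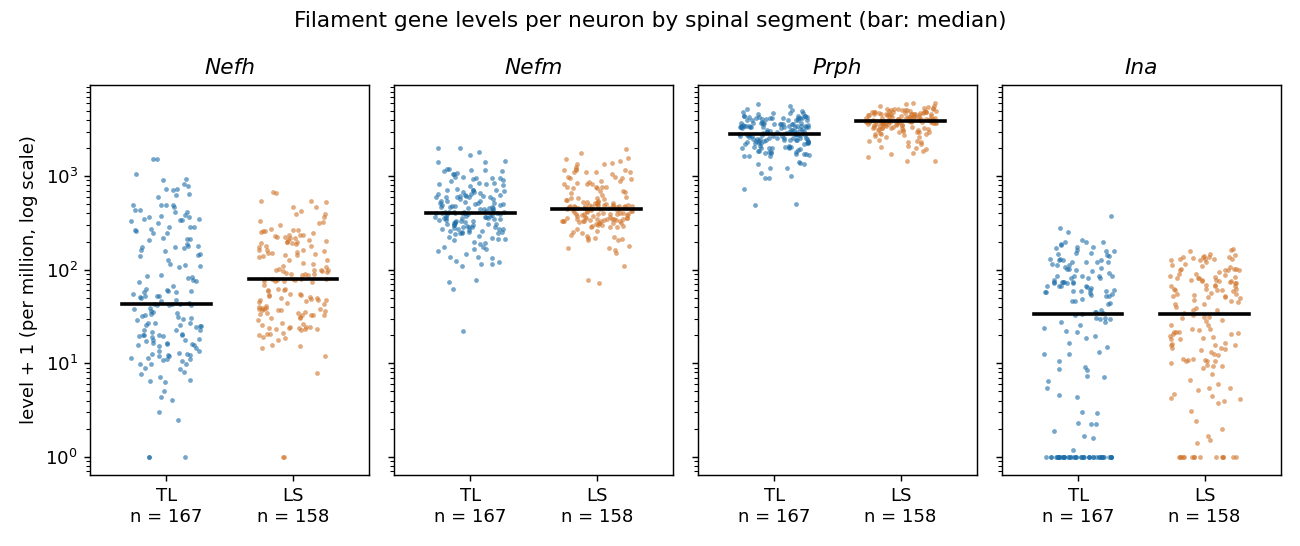
Level + 1 per 1000000 (y axis, log scale) of the 4 genes in each neuron, by spinal segment. Each point is 1 neuron and the bar is the median; Prph is high in all neurons (medians of 2850 in TL and 3907 in LS), and Ina has a row of TL neurons at 0.

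A gene was called past the threshold where the means of log2(level + 1) differed by at least 1, a 2-fold change, with the same direction in each library plate that had at least 3 neurons on both sides. Plates 2 to 6 hold both segments. For LS against TL none of the 4 genes was past it, with 3.52% of 7752 genes tested called higher and 1.82% called lower in LS neurons. Differences of medians on the log2(level + 1) scale, LS minus TL, were 0.85 for Nefh, 0.45 for Prph, 0.15 for Nefm and -0.01 for Ina. Within plates, Prph was higher in LS neurons in 5 of 5 plates (0.22 to 0.84), Nefh in 4 of 5 (-0.32 to 1.55), Nefm in 3 of 5 (-0.16 to 0.35) and Ina in 4 of 5 (-1.36 to 2.21). The difference of means had a median of 0.15 over all genes tested, and on means, relative to it, Nefh was 0.33, Prph 0.32, Nefm 0.04 and Ina 0.43 higher in LS neurons. On x as deposited, without rescaling, the median over all genes was -0.08 and the difference of medians of Prph was -0.026, whereas its difference of means relative to all genes was 0.28. The level of the satellite glia genes moved against that of Prph. The Spearman correlation between their sum and Prph was -0.35 over all neurons, -0.31 within TL and -0.19 within LS. The part of the glia genes in the difference was not tested.

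Shares of neurons were also compared. Nefh was at a level of 10 or more in 146 of 167 TL neurons (87.4%, exact Clopper-Pearson 95% interval 81.4% to 92.0%) and in 155 of 158 LS neurons (98.1%, 94.6% to 99.6%). Ina was at 10 or more in 102 TL neurons (61.1%, 53.2% to 68.5%) and in 115 LS neurons (72.8%, 65.1% to 79.6%). Listed at 0 for Ina were 46 TL neurons (27.5%) and 15 LS neurons (9.49%). These intervals cover counting error only, and neurons of 1 culture are not independent animals. After each neuron had been thinned at random to 400000 reads the shares were 86.2% and 96.8% for Nefh and 60.5% and 71.5% for Ina. At a level of 100 or more the order of the segments turned for Ina, with 21.6% of TL and 15.8% of LS neurons, and for Nefh the shares were 35.9% and 38.6%. Prph and Nefm were at 10 or more in all 325 neurons.

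The neurons were next divided by 4 genes that mark kinds of sensory neuron, each counted as present at a level of 10 or more. Gfra3, a subunit of the artemin receptor that is known from peptidergic nociceptors, was present in 183 neurons and Piezo2, a mechanically gated ion channel, in 145. Mrgprd, a receptor known from non-peptidergic nociceptors of the skin, was present in 17 neurons (15 TL and 2 LS), and Cbln2, which encodes a secreted synaptic organiser, in 17 (12 TL and 5 LS). After neurons with Mrgprd and then those with Cbln2 had been set apart, 156 had Gfra3 alone (82 TL, 74 LS), 94 had Piezo2 alone (33 TL, 61 LS), 23 had both (16 TL, 7 LS) and 18 had neither (9 TL, 9 LS). These classes are thresholds on single genes and not clusters.

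Nefh and Ina split the neurons in opposite directions. In neurons with Gfra3 alone Nefh ranged from 0 to 114 (median 24.7), and in those with Piezo2 alone from 14.3 to 1539 (median 224). Ina ranged from 0 to 377 (median 80.3) with Gfra3 alone and from 0 to 77.3 (median 4.73) with Piezo2 alone. The ranges overlapped for both genes, but the spans from the 1st to the 3rd quartile did not, at 14.6 to 40.9 against 145 to 361 for Nefh and at 52.3 to 122 against 0 to 14.8 for Ina. Nefm ranged from 21.2 to 839 (median 367) with Gfra3 alone and from 71.6 to 2021 (median 768) with Piezo2 alone. For Prph the medians were 3732 (728 to 5898) and 3191 (504 to 6089), the smallest ratio of medians among the 4 genes.

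Gfra3 alone against Piezo2 alone gave a difference of medians on the log2 scale of -3.13 for Nefh, -1.06 for Nefm, 0.23 for Prph and 3.83 for Ina. Ina was past the threshold upwards and Nefh and Nefm downwards, where 4.13% of 7867 genes tested were called higher and 6.23% lower. By difference of means, 0.216% of all genes tested had a larger difference than Ina towards Gfra3 and 0.508% a larger one than Nefh towards Piezo2. The direction was the same in 5 of 5 plates for Ina (3.09 to 4.43), Nefh (-3.21 to -2.54) and Nefm (-1.39 to -0.25), and in 4 of 5 for Prph (-0.15 to 0.49). Summed levels of the satellite glia genes had medians of 1735 with Gfra3 alone and 1940 with Piezo2 alone. Those of the fibroblast genes were 61.1 and 2.73 and those of the macrophage genes 60.6 and 19.9, with 5 fibroblast and 5 macrophage genes at a median of 0 in each class, and their part in the differences was not tested.

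**Figure D3:**
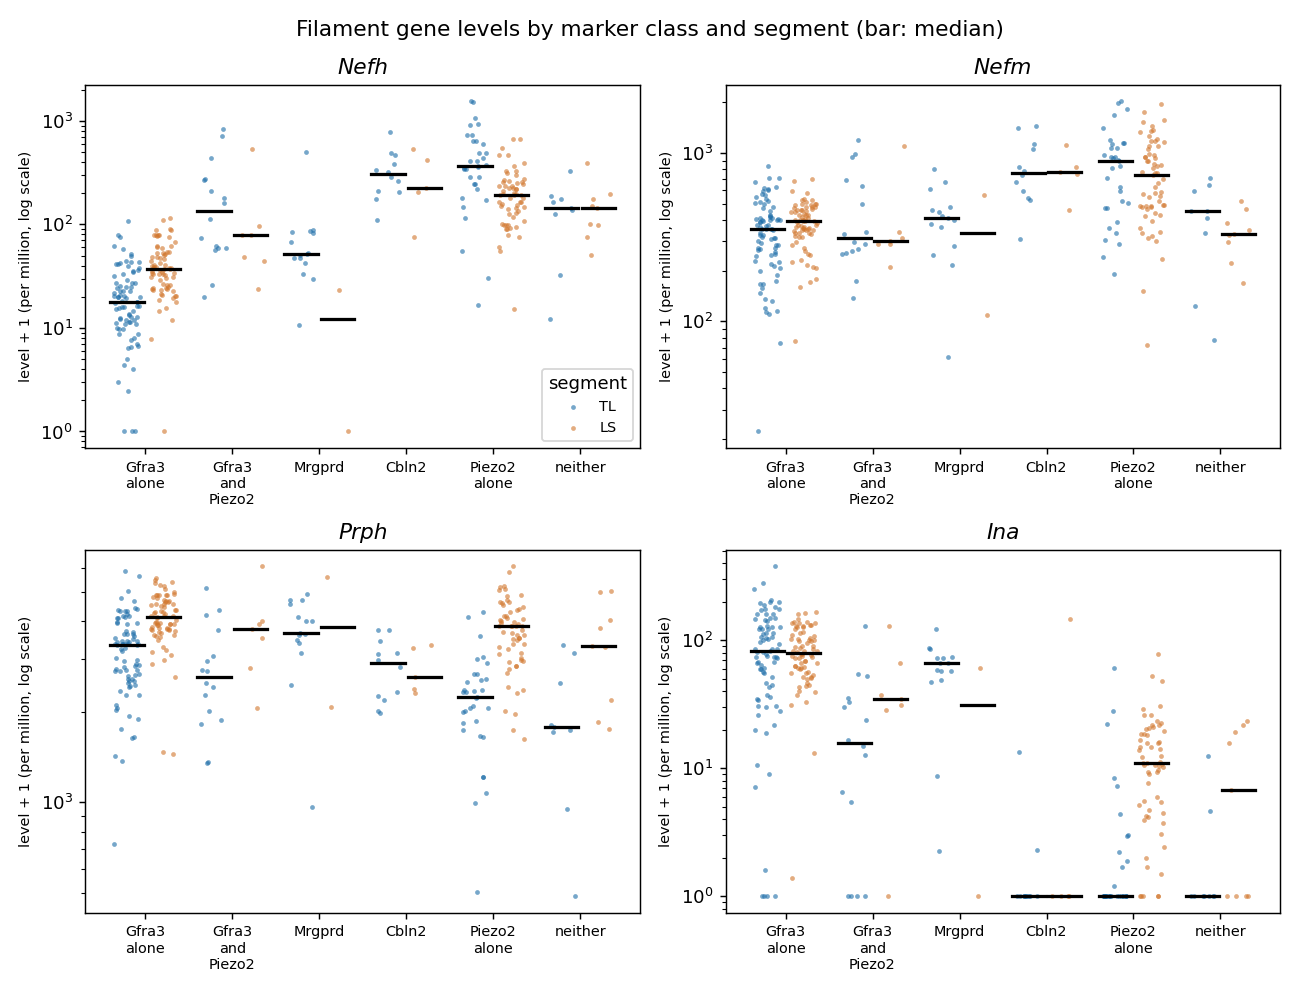
Level + 1 per 1000000 (y axis, log scale) of each gene by marker class (x axis) and segment (TL blue, LS orange), with 1 point for each neuron and a bar for the median. Nefh and Ina run in opposite directions between Gfra3 alone (medians of 24.7 and 80.3) and Piezo2 alone (224 and 4.73), and most Cbln2 neurons lie at 0 for Ina.

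With all neurons split by each marker in turn, which uses the same neurons again, the 183 Gfra3 neurons had a median Nefh level of 29.8 against 196 in the other 142 neurons. The difference of -2.68 was past the threshold, as was that of 4.00 for Ina (73.3 against 3.64), with 3.94% of 7809 genes called lower and 5.15% called higher. Differences of -0.76 for Nefm (356 against 603) and 0.22 for Prph (3655 against 3140) were not. For Piezo2 the signs were the reverse. The 145 Piezo2 neurons had a median Nefh level of 202 against 29.5 in the other 180 (2.73) and a median Ina level of 7.98 against 73.1 (-3.05), both past the threshold, with 5.42% of 7807 genes called higher and 2.96% called lower. Their Nefm level was 628 against 367 (0.77) and their Prph level 3142 against 3620 (-0.20). Nefh and Ina kept their direction in each of 5 plates for both markers.

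Cbln2 neurons had the highest share of neurons without Ina. It was listed at 0 in 14 of the 17 (82.4%), against 26 of 94 neurons with Piezo2 alone (27.7%) and 4 of 156 with Gfra3 alone (2.56%). Among TL neurons, the median of Ina was also 0 with Piezo2 alone and with neither marker. Of the 17 Cbln2 neurons, 12 were TL and 13 also had Piezo2. Their Nefh levels ran from 73.8 to 786 (median 289, against 52.0 in the other 308 neurons), and their Nefm levels from 307 to 1440 (median 765, against 411). The difference was 2.45 for Nefh and -5.26 for Ina, both past the threshold, where 6.88% of 7921 genes were called higher and 15.4% lower, and it was 0.89 for Nefm. Only plates 5 and 6 had 3 or more Cbln2 neurons, with 2.54 and 2.75 for Nefh. Prph had medians of 2826 in Cbln2 and 3530 in the other neurons (-0.32), a difference that was 0.024 within TL neurons and 0.22 on x as deposited.

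Mrgprd neurons kept both genes at middle levels. Nefh ranged from 0 to 495 in them (median 49.7, against 59.6 in the other neurons) and Ina from 0 to 121 (median 59.9, against 29.7). Ina was at 10 or more in 14 of the 17 (82.4%, 56.6% to 96.2%). Neither difference of medians, -0.26 and 0.99, went with a call, where 7.9% of 8030 genes were called higher and 7.93% lower. The difference of means of Ina was 1.06, above the 2-fold limit, but ranged from -0.67 to 2.08 in the 3 plates. Within TL, which holds 15 of these neurons, Ina was past the threshold (65.2 against 27.9, a difference of means of 1.74). There, 12.5% of 7922 genes were called higher and 6.98% lower. In the 2 plates that could be compared, the differences of means were 0.97 and 2.96. Those of medians were -0.01 and 3.65, so the medians did not share a direction. Nefm had medians of 412 and 427 and Prph of 3663 and 3441. With 2 LS neurons, the levels of Mrgprd neurons were not compared between segments.

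Neurons with both Gfra3 and Piezo2 lay between the classes for Nefh and Ina. Their Nefh levels were 19.0 to 829 (median 77.7) and their Ina levels 0 to 128 (median 27.3). Their medians of 301 for Nefm and 2807 for Prph were below those of both Gfra3 alone and Piezo2 alone. The 18 neurons with neither marker had medians of 143 for Nefh and 0 for Ina, with 11 of 18 listed at 0, nearer to the Piezo2 side on both genes. Their Prph median of 2343 was the lowest of the 6 classes, and their Nefm median was 363.

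In single neurons, high Nefh and high Ina were not found together at a cut of 100. Some neurons came near it, such as an LS neuron with Nefh at 108 and Ina at 99.3. No neuron had both at 100 or more (0 of 325, which allows a share of up to 0.923% by a limit of 3 counts and up to 1.13% by the exact interval), although 121 neurons had Nefh and 61 had Ina at that level. At the level of 10, both were present in 198 neurons (60.9%, 55.4% to 66.3%), Nefh without Ina in 103 (31.7%), Ina without Nefh in 19 (5.85%) and neither in 5 (1.54%). Ina without Nefh was found only in neurons with Gfra3 alone, among the 6 classes. Ina was above Nefh in 134 of 156 neurons with Gfra3 alone (85.9%, 79.4% to 90.9%) and in 1 of 94 with Piezo2 alone (1.06%, 0.0269% to 5.79%). The Spearman correlation of Nefh and Ina was -0.66 over 325 neurons, -0.67 within TL, -0.65 within LS and between -0.73 and -0.55 within plates. It was -0.01 over the 156 neurons with Gfra3 alone and -0.51 over the 94 with Piezo2 alone. Neurons of 1 plate share a library pool, and correlations across neurons are given as descriptions.

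**Figure D4:**
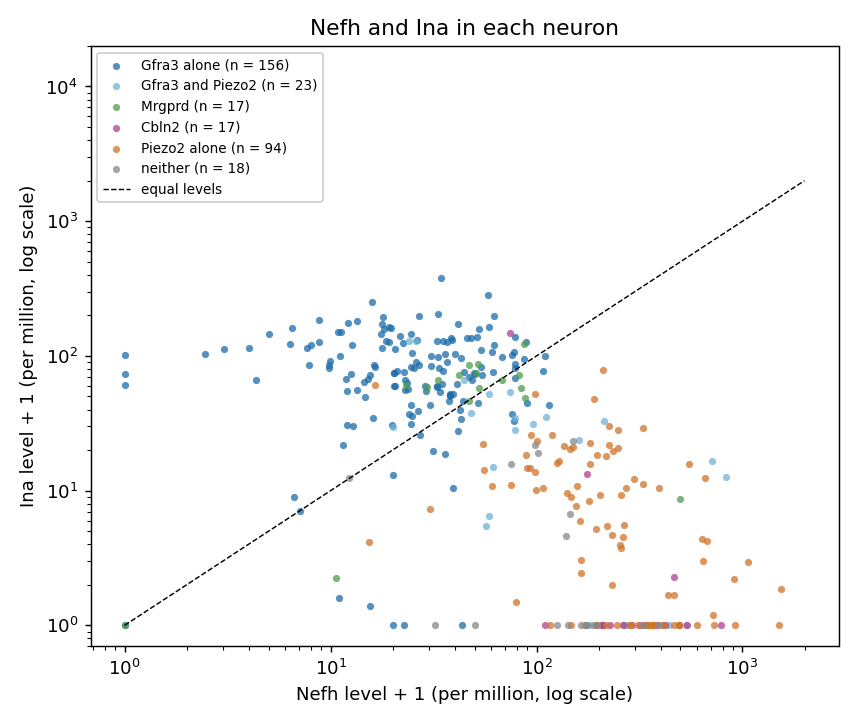
Nefh level + 1 (x axis) and Ina level + 1 (y axis) per 1000000, both on log scales, with 1 point for each of 325 neurons coloured by marker class and a dashed line at equal levels. Neurons with Gfra3 alone lie mostly above the line (134 of 156) and those with Piezo2 alone below it (93 of 94), and the corner with both genes at 100 or more is empty.

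Nefh and Nefm varied together. Their Spearman correlation was 0.67 over all neurons, 0.66 within TL, 0.66 within LS and 0.57 to 0.73 within plates, and it was 0.31 with Gfra3 alone and 0.77 with Piezo2 alone. Nefm exceeded Nefh in 321 of 325 neurons, but the ratio was not constant. The median of Nefm over Nefh, from levels + 1, was 13.8 with Gfra3 alone and 3.24 with Piezo2 alone. Nefm and Ina had a correlation of -0.27 over all neurons, 0.46 with Gfra3 alone and -0.29 with Piezo2 alone. Prph went with Ina (0.46 over all neurons, 0.56 within TL, 0.39 within LS, 0.15 to 0.67 within plates), and its correlation over all neurons was 0.02 with Nefm and -0.17 with Nefh. Within the classes, that of Prph and Nefh was 0.35 with Gfra3 alone and -0.31 with Piezo2 alone, and that of Prph and Nefm was 0.27 and 0.06. Reads per neuron correlated with the 4 genes between -0.003 and 0.087 over all neurons. Within plates these correlations were 0.16 to 0.35 for Prph, -0.07 to 0.27 for Nefh, -2.8e-05 to 0.27 for Nefm and -0.13 to 0.27 for Ina. The number of genes detected correlated with Nefm at 0.36 (0.22 to 0.56 within plates), Nefh at 0.20, Prph at 0.16 and Ina at 0.11.

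Segments were then compared within the large classes, Gfra3 alone and Piezo2 alone, and Nefh had opposite directions there. The study equates Gfra3 neurons of TL and of LS ganglia with different subtypes. Whether a class holds the same kind of neuron in both segments was not tested. With Gfra3 alone, Nefh ranged from 0 to 107 in 82 TL neurons (median 16.8) and from 0 to 114 in 74 LS neurons (median 35.8). The difference of 1.04 was past the threshold, where 2.72% of 7692 genes were called higher and 2.07% lower in LS neurons, and it lay between 0.94 and 1.15 in the 5 plates. With Piezo2 alone, Nefh ranged from 15.5 to 1539 in 33 TL neurons (median 361) and from 14.3 to 670.2 in 61 LS neurons (median 193). That difference of -0.90 was not past the threshold, but its sign was the same in 5 of 5 plates (-1.87 to -0.07). The range of Nefh from 1 class to the other was thus wider in TL than in LS neurons, with medians of 16.8 and 361 against 35.8 and 193.

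Ina was past the threshold between segments within Piezo2 alone but not within Gfra3 alone, and the difference between the classes was not tested. With Piezo2 alone it ranged from 0 to 60.0 in TL (median 0) and from 0 to 77.3 in LS neurons (median 9.90). It was at 10 or more in 3 of 33 TL neurons (9.09%, 1.92% to 24.3%) and in 30 of 61 LS neurons (49.2%, 36.1% to 62.3%), and listed at 0 in 21 TL (63.6%) and 5 LS neurons (8.20%). The difference of 3.45 on the log2(level + 1) scale was past the threshold, where 6.64% of 7903 genes were called higher and 3.16% lower, with 3.05 to 3.88 in the 5 plates. With Gfra3 alone the medians were 81.0 in TL and 78.3 in LS neurons (-0.05, and -0.38 to 0.64 in the plates). The 10 neurons with most Ina were all TL neurons with Gfra3 alone.

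Prph was higher in LS neurons in both classes. With Gfra3 alone the medians were 3343 in TL (728 to 5898) and 4142 in LS neurons (1452 to 5574), a difference of 0.31. With Piezo2 alone they were 2243 (504 to 4304) and 3849 (1619 to 6089), a difference of 0.78. By difference of means Prph had 0.40 and 0.79, where the median over all genes tested was 0.16 and 0.14. Of all genes tested, 22.9% and 12.7% had a larger difference towards LS than Prph. The differences of medians of Prph had the same sign in 5 of 5 plates, at 0.24 to 0.70 and 0.31 to 1.13. In neither class was Prph past the threshold. Nefm showed no such order, with medians of 351 and 391 with Gfra3 alone (0.16, and -0.19 to 0.29 in the plates) and of 893 and 739 with Piezo2 alone (-0.27, and -0.99 to 0.24). Summed satellite glia genes had medians of 3467 in TL and 995 in LS neurons with Gfra3 alone and of 3444 and 1573 with Piezo2 alone, and their correlation with Prph within those 4 groups lay between -0.40 and -0.06. Summed fibroblast genes had medians of 43.1 in TL and 229 in LS neurons with Gfra3 alone and of 5.90 and 1.65 with Piezo2 alone. Most of the 6 genes had medians of 0 in each group. These were 4 in TL and 5 in LS neurons with Gfra3 alone, and 4 and 6 with Piezo2 alone. The sums thus rest on few genes. Summed macrophage genes had medians of 46.5 and 72.4 with Gfra3 alone and of 8.34 and 27.5 with Piezo2 alone, and their correlation with Prph in the LS neurons of the latter was 0.42. Of the 6 macrophage genes, 5 had medians of 0 in both segments with Gfra3 alone and 4 in both with Piezo2 alone. The part of these genes in the differences was not tested, nor was it tested whether neurons of either class are of the same kind in both segments.

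**Figure D5:**
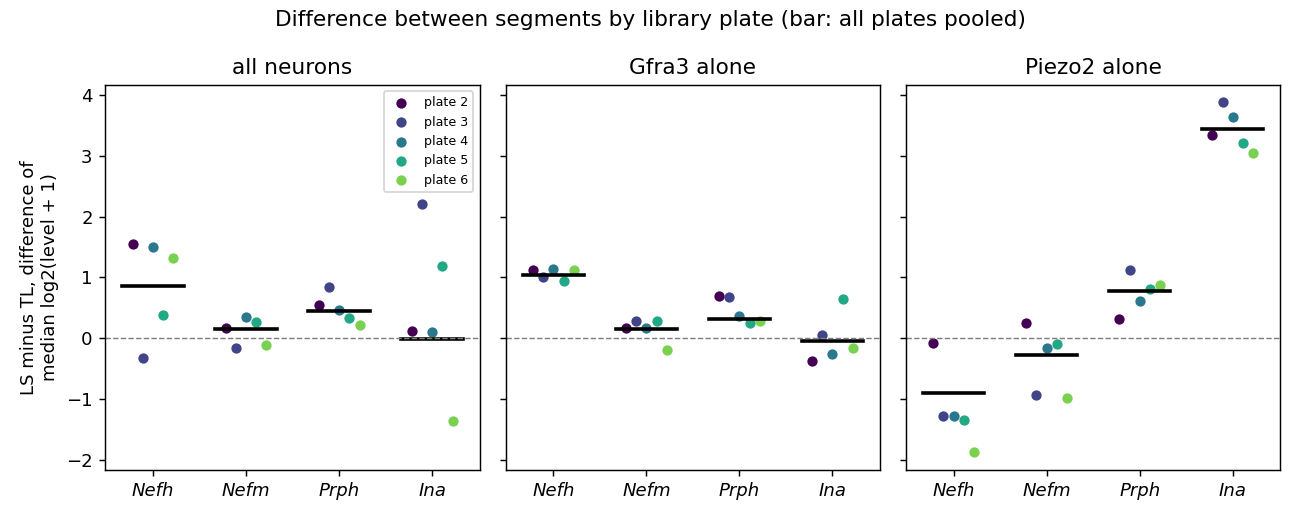
Difference between segments, LS minus TL, of median log2(level + 1) (y axis) for the 4 genes (x axis) over all neurons, with Gfra3 alone and with Piezo2 alone. Points are library plates 2 to 6 and bars the plates pooled; Nefh lies at 0.94 to 1.15 with Gfra3 alone and at -1.87 to -0.07 with Piezo2 alone.

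The genes most like each member across the 325 neurons were taken by Spearman correlation among the 10283 genes named above. For Nefh they were Cpne6 (0.79), Paqr9 (0.76), Thy1 (0.76), Fbxo2 (0.76) and Pcolce2 (0.76). Thy1, a surface glycoprotein of neurons, had a median level of 1.52 with Gfra3 alone and 359 with Piezo2 alone. Piezo2 itself stood at position 6 (0.75), and the lowest were Gng2 (-0.71), Gpx3 (-0.69) and Mal2 (-0.68). For Nefm the highest were Nefl (0.80), Atp1b1 (0.68), Nefh (0.67), Tuba4a (0.66) and Tmem25 (0.65), the lowest being Rps27 (-0.57), Rps19 (-0.54) and the small nucleolar RNA host gene Gas5 (-0.53). The exonic overlap of Nefm and Nefl means that part of their correlation may be shared reads, which was not tested.

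For Ina the genes most alike were Frzb (0.78), Mctp2 (0.77), Ret (0.77), Tmem255a (0.77) and Gpx3 (0.76), and Gfra3 followed at position 6 (0.75). Ret, the signalling subunit of the receptors for artemin and related ligands, had a median of 276 with Gfra3 alone and 42.5 with Piezo2 alone. The lowest were S100b (-0.76), Thy1 (-0.71) and Ldhb (-0.70), so that Thy1 and Gpx3 appear at opposite ends for Nefh and Ina. Prph had lower correlations, with Ywhah (0.67), Trpv2 (0.62), Ldha (0.59), Celf6 (0.58) and Ldb2 (0.57) highest and Nfia (-0.50), Kitl (-0.48) and S100a16 (-0.48) lowest. Ina stood at position 52 for Prph.

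Among the other intermediate filament genes, the light chain was the one that differed between classes. Of 13 such genes, 5 were tested between Gfra3 alone and Piezo2 alone and 1, Nefl, was past the threshold (downwards, as were 6.23% of all genes tested, with 4.13% upwards), at a median level of 855 with Gfra3 alone and 2111 with Piezo2 alone. Nefl had a correlation of 0.71 with Nefh and of -0.42 with Ina, and was above Nefm in 323 of 325 neurons. Vim, which encodes the filament protein vimentin, had medians of 89.5 and 148, Synm (synemin) of 37.4 and 23.8, Sync (syncoilin) of 28.9 and 21.8 and Lmna (lamin A) of 82.0 and 93.7, none past the threshold. Nes, Gfap, Des, Lmnb1 and the keratins Krt8, Krt18 and Krt19 had medians of 0. None of the 5 genes tested for LS against TL was past the threshold, where the shares of all genes were 3.52% higher and 1.82% lower. The median difference of all 13, tested or not, was -0.08 for Gfra3 alone against Piezo2 alone, where it was -0.12 over all genes tested. As the 13 include untested genes with medians of 0, the sets are not alike.

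Of 18 genes whose products bind, move or turn over filaments, none of 14 tested was called for Gfra3 alone against Piezo2 alone (all genes 4.13% higher and 6.23% lower) and none of 15 for LS against TL (3.52% and 1.82%), which is near the background. Plec, which encodes the linker plectin, had medians of 45.3 with Gfra3 alone and 61.5 with Piezo2 alone. Kif5a, a kinesin that carries neurofilaments, had medians of 173 and 169. Cdk5, a kinase of the neurofilament tails, had medians of 114 and 199 and a correlation of 0.59 with Nefh. Map1b, a microtubule protein, had medians of 1059 and 1487 and a correlation of 0.55 with Nefm.

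Lists of genes known from myelinated and from C fibre neurons were set beside the members. Of 15 genes of myelinated neurons, 10 were tested and 9 were lower with Gfra3 alone than with Piezo2 alone, none being higher, beside 6.23% and 4.13% of all genes. Among them were Ldhb (116 against 464) and the potassium channel Kcna1 (0 against 9.15), and their correlations with Nefh were 0.64 and 0.70. A gene was tested if its mean level was at least 10 in 1 of the classes. A gene near 0 in the other class, as Kcna1 was, could thus in practice be called in 1 direction only, and the counts are descriptions. Of 10 C fibre genes 9 were tested, of which 4 were higher with Gfra3 alone (Calca, Tac1, Trpv1 and Ret) and 1, the purinergic receptor P2rx3, was lower (31.5 against 79.5). Tac1, which encodes substance P, had medians of 3563 and 24.0, and Trpv1, the capsaicin receptor, of 1092 and 4.91. Both had a correlation of 0.73 with Ina and of 0.46 with Prph. For LS against TL, 2 of 9 myelinated genes tested were higher (Thy1 and Spp1) and 1 of 9 C fibre genes (Tac1), beside 3.52% of all genes. Within Piezo2 alone, 12 genes of the myelinated list were tested, and 5 were lower and 2 higher in LS neurons, beside 3.16% and 6.64% of all genes.

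Since the neurons had been cut from their axons and dissociated, 9 genes known to respond to axon injury were also counted. With 7 tested, Gal and Ecel1 were higher with Gfra3 alone than with Piezo2 alone, where 4.13% of all genes were higher. Ecel1 had a median of 0 in both classes and was at 10 or more in 10.5% of all neurons. A gene so near 0 could in practice be called in 1 direction only, and the count is a description. None of 6 tested was past the threshold between LS and TL neurons, where 3.52% of all genes were higher and 1.82% lower, so that no call in 6 genes is near the background. Atf3, the usual marker of injured DRG neurons, was at 10 or more in 96.6% of neurons, with medians of 199 in TL and 328 in LS neurons. Its correlation was 0.03 with Nefh, -0.22 with Nefm, 0.03 with Prph and -0.13 with Ina. Gal, the neuropeptide galanin, had medians of 4858 with Gfra3 alone and 44.3 with Piezo2 alone, and a correlation of -0.64 with Nefh and of 0.71 with Ina.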

How the data were processed

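Single neurons were sequenced by Smart-seq2 in 6 library plates with 75 bp paired-end reads. According to the submitters' processing notes and the study's methods, reads were split with bcl2fastq 2.15.0.4, aligned to the mouse genome (GRCm38.p3) by STAR 2.4.1, and assigned to Ensembl genes by featureCounts 1.4.4. The authors deposited log2 values of normalised expression for 325 neurons that had passed their quality filter, before satellite glia were removed. The scale is not stated with the table. The sum of x = 2^value - 1 differed between neurons (218865 to 11159067), so x was rescaled to 1000000 per neuron.

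Reads were recovered as x = reads times a factor of the neuron over a length of the gene. With exonic lengths of GENCODE M21, 65.3% of the values above 0 came out whole within a relative tolerance of 1e-09, against 0.262% with lengths changed at random. Lengths of 8712 genes were found from the values, 760 of them for genes above 0 in fewer than 3 neurons, where the length is uncertain. The recovery was tested on simulated data. Reads serve for depth, floors, thinning and an alternative scale only.

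The members, lists and comparisons were chosen with earlier results of these data known. Named genes are the 4 members, the 4 markers, the 5 genes with the highest and 3 with the lowest Spearman correlation to each member, and genes of the lists. Nt5c2, which overlaps Ina, was added after its values were seen. Genes with a mean level of at least 10 in 1 of the groups were tested for calls, which rest on differences of mean log2(level + 1), while the differences printed for members are of medians. Cells are not replicates, so no p-value was computed, and library plates served as strata. Alternatives changed the scale, the pseudocount, the threshold of the markers, the cell filter and the plates. The within-class differences and the thinning were chosen after seeing the data. Python 3.11.15 was used with numpy 2.4.6, pandas 2.3.3, scipy 1.17.1 and matplotlib 3.10.9.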

Additional observations from a re-analysis of the deposited data

Results flagged for a closer look

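The difference between LS and TL neurons in Nefh differed between the classes of neurons. It was positive in all 5 plates with Gfra3 alone (0.94 to 1.15 on the log2 scale) and negative in all 5 with Piezo2 alone (-1.87 to -0.07), and the means over plates were 2.23 apart. Plates are not replicate animals, and the difference between the classes was not tested.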

How the results depend on the processing

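Of 368 alternative values for the differences of medians, 328 moved by less than 1 SD of the within-plate differences and 40 by more, on the log2(level + 1) scale. The sign was opposite in 20. Of these, 8 were for Ina in LS against TL, from a value near 0 (0.003 to 3.45), 6 were for Nefh, Nefm or Prph in Mrgprd neurons (-0.06 to 0.32), and the other 6 are among the values below. On x as deposited Prph became -0.026 for LS against TL and 0.22 for Cbln2 neurons, and Nefm became -0.22 for LS against TL. There, Cbln2 neurons had 2.67 for Nefh, 1.36 for Nefm and -4.92 for Ina. Within Piezo2 alone, LS against TL gave -0.90 for Nefh, -0.27 for Nefm, 0.78 for Prph and 3.45 for Ina. Within TL, Gfra3 neurons had -3.59 for Nefh, 0.42 for Prph and 6.12 for Ina, Piezo2 neurons 3.65 for Nefh and -5.30 for Ina, Cbln2 neurons 2.94 for Nefh and 0.024 for Prph, and Mrgprd neurons 0.41 for Prph. Within LS, Ina was 2.86 in Gfra3 neurons, Nefh was 2.26 in Piezo2 neurons, and Cbln2 neurons had 1.54 for Nefh and -0.58 for Prph. A pseudocount of 10 gave Ina 2.61 in Gfra3, -2.21 in Piezo2 and -2.24 in Cbln2 neurons, and Nefh 2.42 in Piezo2 and 2.27 in Cbln2 neurons. The remaining values that moved were for 17 Cbln2 or 17 Mrgprd neurons, where few plates gave a spread. Differences of means gave -3.74 for Ina and 2.23 for Nefh in Cbln2 neurons, and means of within-plate differences -5.65 for Ina, 2.65 for Nefh and, in Mrgprd neurons, 0.57 for Ina. The filter on genes detected and mitochondrial share, which kept 270 neurons, gave -5.60 for Ina, 2.77 for Nefh, 1.13 for Nefm and -0.53 for Prph in Cbln2 neurons. Ina in Cbln2 neurons was -5.67 on CPM and -5.63 with the top gene and mitochondrial genes left out of the total. Leaving out plates 1 to 6 in turn gave 2.07 to 2.53 for Nefh in Cbln2 neurons and moved no other difference by over 1 SD. The cause of these moves was not tested. The satellite glia filter left out no neuron, so its values equal the main ones by construction and count among the 328. For Nefh in LS against TL, the SD of the within-plate differences was 0.82 beside a difference of 0.85. Its value of 0.42 on x as deposited thus counted as moved by less than 1 SD. Within LS the 2 Mrgprd neurons were too few for an alternative value.

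The share of all genes called, in both directions, was 5.34% for LS against TL with the filter on mean level and 1.41% without it, 9.09% and 2.63% for Gfra3, 8.38% and 2.46% for Piezo2, 15.8% and 5.21% for Mrgprd and 22.3% and 7.12% for Cbln2 neurons, since more genes are tested without it. Of the 5 genes most like each member over all neurons, 1 to 5 were held in common within TL, within LS or after removal of plate means. No paired analysis was possible because the labels give no replicate numbers shared by the segments and name no animal. At this depth a level of 10 was above the floor of 3 reads in every neuron listed at 0, and with TL and LS as 1 sample each, differences between animals cannot be told apart from differences between segments.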
